A study of Mus musculus with 8 samples.

Results

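The fibroblast growth factor (FGF) ligands Fgf9, Fgf10, Fgf7, Fgf18, Fgf1 and Fgf2 and the receptors Fgfr1, Fgfr2, Fgfr3 and Fgfr4 were followed in embryonic mouse lung at E13.5. These 10 genes were chosen by symbol from the 55401 genes of the deposited count table, and all 10 passed the filter on low counts that left 15788 genes for testing. Lung RNA was sequenced from 4 libraries labelled cre control and from 4 mutant libraries with the genotype Tbx4tetOcre MyrfE6. Which Cre elements or Myrf alleles the controls carried is not given, the MyrfE6 allele is not explained, and no inducer is named. As background, a tetO promoter is switched on by a tetracycline-controlled activator, and Tbx4 sequences are used to direct such activators to lung mesenchyme. Sex, pooling of embryos and litter are also not stated, and the p-values therefore cover no more than the spread between these libraries.

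Most FGFs are secreted proteins that bind receptor tyrosine kinases together with heparan sulfate and signal through RAS and a kinase cascade. In the developing lung the ligands and receptors are divided between layers. FGF10 from mesenchyme acts on the FGFR2 form of the epithelium and drives bud outgrowth, while FGF9 from mesothelium and epithelium acts on FGFR1 and FGFR2 of the mesenchyme and sustains its growth. Myrf encodes a membrane-bound transcription factor that is expressed in mesothelium, the cell layer covering the lung.

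Of the 10 genes, Fgf9 fell in the mutant lung and the other 9 did not pass the test over all genes (edgeR quasi-likelihood test, adjusted p below 0.05), against 1.49% of all genes called in that comparison, 0.931% as lower and 0.564% as higher. None of the 10 passed as higher in the reported edgeR fit, in DESeq2 or in limma-voom, and 2, Fgf1 and Fgf2, were higher at an unadjusted p below 0.05 (edgeR). Fgf1 passed as higher in 3 of 18 alternative fits. The mean of Fgf9 fell by 29.6%, its adjusted p was 0.0473 (edgeR), and the call was lost in 10 of 18 alternative fits. Fgf10 was lower and Fgf1 and Fgf2 were higher by sign without passing, and the 4 receptors differed by less than 0.06 on the log2 scale over all 8 libraries. Fgf9 was also the 1 gene of the 10 whose control and mutant libraries did not overlap, against 7.37% of all genes.

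The libraries differed in features that touch these values. Totals ranged from 17799899 to 19032389 counts in the controls and from 17819285 to 48679134 in the mutants, with mutant replicate 2 the deepest. Levels below are CPM, counts scaled to a common library total with TMM factors (trimmed mean of M-values). Myrf measured 107 to 120.5 CPM in the controls and 84.4 to 92.4 CPM in the mutants, a log2 fold change of -0.37 (adjusted p = 0.000211, edgeR). All listed markers of lung epithelium and lung mesenchyme were tested, with Nkx2-1, the lung epithelial factor, at 175 CPM and Tbx4, a mesenchymal factor, at 272 CPM in the controls. Of these lists, Sox2, a factor of proximal airway epithelium, rose from 13.7 to 19.8 CPM and Wnt2, a mesenchymal ligand, fell from 115 to 91.4 CPM (adjusted p = 0.00282 and 0.00852, edgeR). Sex-linked transcripts split the libraries: control replicates 2 and 3 had Xist at 874 and 868 CPM and summed Y-linked genes at 0 and 0.0565 CPM, mutant replicates 1 and 2 had Xist at 0.591 and 0.369 CPM and Y-linked genes at 133 and 143 CPM, and the remaining 4, called the mixed libraries here, had both. Values within the mixed libraries are given beside the ligands that differed most. Summed markers of nerve and neural crest were 27.3 to 29.9 CPM in the controls and 33.0 to 37.6 CPM in the mutants, and those of heart muscle 60.3 to 101 and 87.9 to 142.5 CPM. The part of neighbouring tissue in the results was not tested. The 2 replicates numbered 4 were close on the first principal component (-4.12 in the mutant, -4.96 in the control). With both left out the log2 fold changes were -0.59 for Fgf9, -0.29 for Fgf10, 0.56 for Fgf1 and 0.31 for Fgf2, and Fgf9 alone of these passed (adjusted p = 0.0238, edgeR).

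Because Fgf9 was the gene that passed, the 250 bases before 1 of its RefSeq transcript starts are shown with those of Fgf10, the other ligand that was lower by sign. Both are read 5′ to 3′ on the plus strand of GRCm38.p6, at chr14:58072436-58072685 for Fgf9 and chr13:118714449-118714698 for Fgf10, with CpG dinucleotides in capitals.
Fgf9: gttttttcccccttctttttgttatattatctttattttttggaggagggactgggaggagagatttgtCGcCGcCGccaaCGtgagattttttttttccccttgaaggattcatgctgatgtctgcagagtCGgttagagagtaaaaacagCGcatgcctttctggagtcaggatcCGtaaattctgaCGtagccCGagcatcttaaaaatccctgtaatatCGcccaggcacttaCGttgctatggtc
Fgf10: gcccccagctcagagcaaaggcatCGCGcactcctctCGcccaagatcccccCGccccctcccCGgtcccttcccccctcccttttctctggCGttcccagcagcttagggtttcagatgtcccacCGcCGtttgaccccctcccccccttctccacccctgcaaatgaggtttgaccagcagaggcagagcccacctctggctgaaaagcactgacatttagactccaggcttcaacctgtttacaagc
The Fgf9 window held 11 CpG and 44.8% G and C, the Fgf10 window 8 CpG and 61.2%, and the median of 32851 windows was 6 CpG and 52.4%. Neither window held CTGGCAC or CTGGTAC on either strand, the letters of the motif known for MYRF, nor TATAAA. The motif letters were in 5.93% of all windows and TATAAA in 12.4%. They were in 0 of 9 windows of the 8 genes whose windows were searched, which says only that these letters are not in these bases. The deposited table starts Fgf9 at 58070547 and Fgf10 at 118669791, before these windows, and RefSeq starts its Fgf9 gene at 58070671, so both genes also have exons upstream of the windows.

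**Figure D1:**
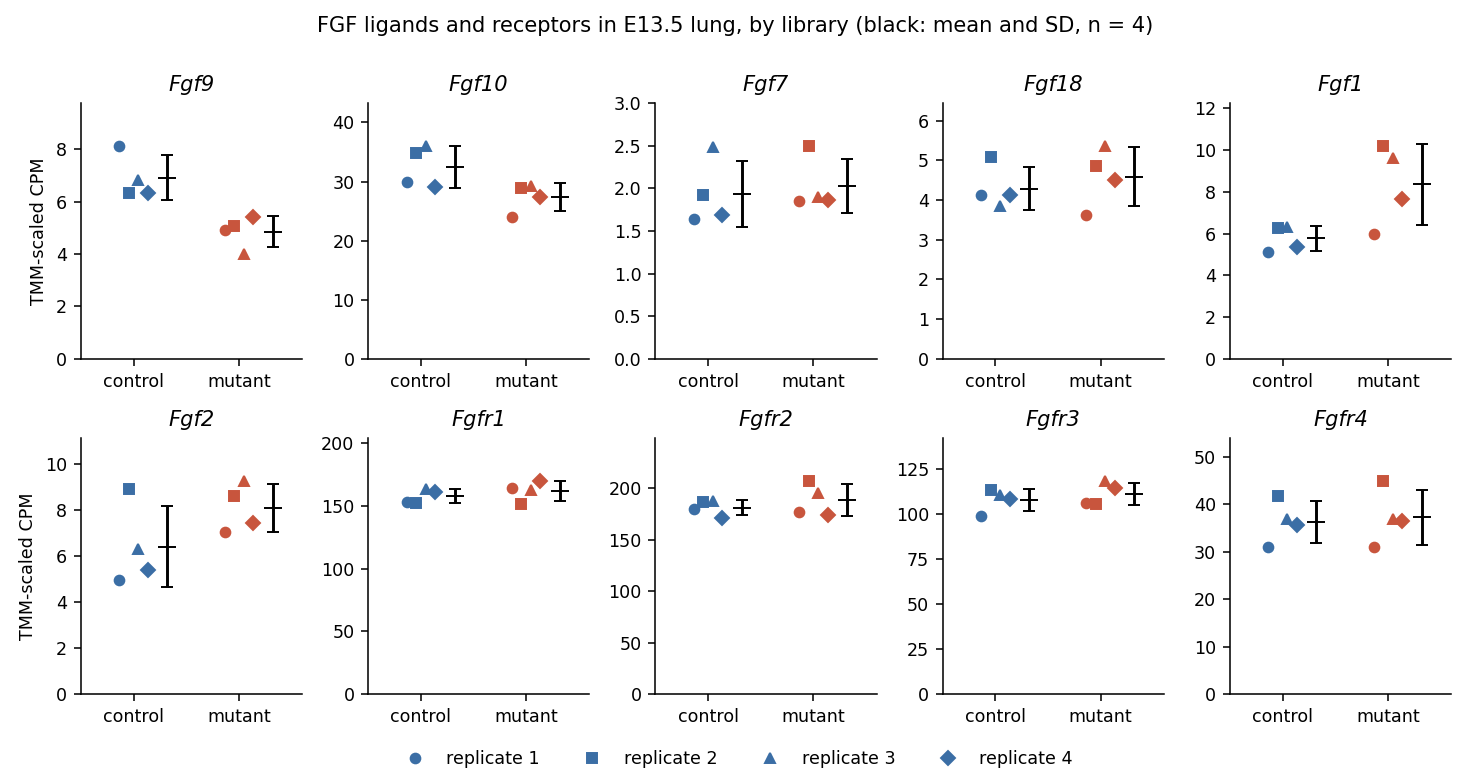
TMM-scaled CPM (vertical axes, starting at 0) of the 6 ligands and 4 receptors in each of the 4 control and 4 mutant libraries, 1 point per library with its replicate number as the marker shape; black bars are the mean and SD. Control and mutant points are separated for Fgf9 (6.31 to 8.13 against 4.0 to 5.40 CPM) and overlap for each of the other 9 genes.

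Fgf9 is a plus-strand gene of chromosome 14 (58070547 to 58112720) of GRCm38 and encodes a ligand known from mesothelium and epithelium of the developing lung. It measured 8.13, 6.31, 6.83 and 6.31 CPM in the controls (replicates 1 to 4) and 4.93, 5.08, 4.0 and 5.40 CPM in the mutants, in the same order. Every mutant library was below every control library, with control replicate 1 the highest and mutant replicate 3 the lowest of the 8. The means were 6.90 ± 0.858 and 4.85 ± 0.601 CPM (SD, n = 4), a log2 fold change of -0.50 with a 95% interval of -0.76 to -0.25 (SE 0.122, edgeR quasi-likelihood test, adjusted p = 0.0473). The gene was counted from 82 to 248 read pairs per library, so counting error alone was 6.35% to 11% of a value. The adjusted p stood just under the threshold. It was 0.0312 to 0.167 when a library was left out, and the call was lost without control replicates 1 (adjusted p = 0.167, edgeR), 2 (0.0648) and 3 (0.114) and without mutant replicates 1 (0.0848), 2 (0.101) and 3 (0.119), while the log2 fold change stayed between -0.55 and -0.41 in those fits. Among the mixed libraries, the 2 controls measured 6.31 and 8.13 CPM and the 2 mutants 4.0 and 5.40 CPM (log2 fold change -0.62, adjusted p = 0.283 in edgeR, 2 against 2).

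Some markers of the mesothelium, a source of Fgf9, were lower as well. Of 14 tested genes of the mesothelium list, 4 fell and 10 did not pass, 2 of them higher by sign. Over all genes 0.931% were called lower. The median log2 fold change of the list was -0.38 against 6.5e-05 over all genes. Earlier results on these libraries had shown the direction of this list. Upk3b, a uroplakin of the mesothelial surface, measured 88.4 ± 3.49 CPM in the controls and 57.0 ± 3.39 CPM in the mutants (SD, n = 4), and Wt1, a mesothelial transcription factor, 19.7 ± 1.52 and 12.2 ± 1.57 CPM. The summed level of the 14 markers was 379 to 405 CPM in the controls and 298 to 357 CPM in the mutants, and 0 of them were without counts in every library. The part of these cells in the Fgf9 result was not tested. Set against that sum, Fgf9 was 1.58% to 2.01% of it in the controls and 1.30% to 1.79% in the mutants, and the groups overlapped on this scale. The sum was itself lower in the mutants, which by arithmetic brings the groups closer. What the overlap reflects was not tested. The 11 summed markers of lung epithelium were 1111 to 1182 CPM in the controls and 1161 to 1218 CPM in the mutants. Set against them, Fgf9 was 0.534% to 0.732% and 0.332% to 0.443%, and the groups did not overlap. Against the 9 summed markers of lung mesenchyme, Fgf9 was 0.165% to 0.257% and 0.101% to 0.151%, again without overlap. Both sums overlapped between the groups and Fgf9 in CPM did not, so by arithmetic these scales add little to the CPM values. In bulk lung, fewer cells of a type and less RNA per cell cannot be told apart.

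Fgf10, the mesenchymal ligand of bud outgrowth, is a plus-strand gene of chromosome 13 (118669791 to 118792115). It measured 29.9, 34.9, 36.1 and 29.1 CPM in the controls (replicates 1 to 4) and 24.1, 28.9, 29.3 and 27.4 CPM in the mutants, in the same order. Control replicates 2 and 3, the libraries with almost no Y-linked counts, were the highest, and control replicates 1 and 4 lay near mutant replicates 2 and 3. Mutant replicates 1 and 2 both had almost no Xist, and replicate 1 was the lowest library while replicate 2 lay among the other mutants. The means were 32.5 ± 3.52 and 27.4 ± 2.37 CPM (SD, n = 4), and the log2 fold change of -0.24 (95% interval -0.41 to -0.08, SE 0.0783) did not pass (adjusted p = 0.14, edgeR). In the mixed libraries the groups of Fgf10 overlapped, at 29.1 and 29.9 CPM in the controls and 27.4 and 29.3 CPM in the mutants, and the log2 fold change was -0.05. With a Y-linked covariate (log2 of the summed CPM) it was -0.09 (adjusted p = 0.771, edgeR). Fgf10 passed without the low-count filter (-0.23, adjusted p = 0.0156) and with the replicate number as a block (-0.25, 0.0232, edgeR). The part of the sex mix in the value over all libraries was not tested further.

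Fgf7, the close relative of Fgf10 that also binds the epithelial form of FGFR2, is a plus-strand gene of chromosome 2 (126034658 to 126091185). It was the lowest ligand in counts, at 30 to 122 read pairs per library. Its levels were 1.64, 1.92, 2.48 and 1.69 CPM in the controls (replicates 1 to 4) and 1.85, 2.5, 1.90 and 1.86 CPM in the mutants, in the same order. The ranges of the groups overlapped over most of their length, and the log2 fold change of 0.10 had a 95% interval of -0.30 to 0.50 (adjusted p = 0.871, edgeR). A change of up to about 1.41-fold upward lay inside that interval.

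Fgf18, a mesenchymal ligand also known from cartilage, is a minus-strand gene of chromosome 11 (33117430 to 33147400). It measured 4.12, 5.07, 3.84 and 4.12 CPM in the controls (replicates 1 to 4) and 3.63, 4.86, 5.37 and 4.5 CPM in the mutants, in the same order. Mutant replicate 1 was the lowest and mutant replicate 3 the highest of all 8 libraries. The log2 fold change was 0.10 with a 95% interval of -0.20 to 0.39 (adjusted p = 0.819, edgeR). Leaving out 1 library gave values from 0.029 without mutant replicate 3 to 0.20 without mutant replicate 1, with 0.19 without control replicate 2, and none passed.

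Fgf1 and Fgf2 encode ligands that lack a classical signal peptide and leave cells by other routes. Fgf1, which can bind all 4 receptors, is a minus-strand gene of chromosome 18 (38838673 to 38929472). It measured 5.12, 6.26, 6.33 and 5.36 CPM in the controls (replicates 1 to 4) and 5.95, 10.2, 9.61 and 7.65 CPM in the mutants, in the same order. Mutant replicates 2, 3 and 4 lay above every control, and mutant replicate 1 lay inside the control range. The means were 5.77 ± 0.616 and 8.36 ± 1.94 CPM (SD, n = 4), and the log2 fold change of 0.55 (95% interval 0.22 to 0.88, SE 0.154) did not pass (adjusted p = 0.0935, edgeR). Without mutant replicate 1 it was 0.69 and passed (adjusted p = 0.00749, edgeR).

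Fgf2 is a plus-strand gene of chromosome 3 (37348346 to 37410108). It measured 4.96, 8.91, 6.33 and 5.41 CPM in the controls (replicates 1 to 4) and 7.06, 8.61, 9.27 and 7.43 CPM in the mutants, in the same order. Control replicate 2 lay among the mutants and the other 3 controls below them. The log2 fold change was 0.34 with a 95% interval of 0.0020 to 0.69 (SE 0.159, adjusted p = 0.357, edgeR). Without control replicate 2 it was 0.54 (adjusted p = 0.0594, edgeR). In the mixed libraries 8 of the 10 genes, all but Fgf10 and Fgfr2, had groups that did not overlap, against 38.1% of all genes. The 8 thus include the receptors Fgfr1, Fgfr3 and Fgfr4 as well as Fgf1 and Fgf2. With 2 libraries against 2, 0 of the 10 passed there (edgeR). There Fgf1 measured 5.12 and 5.36 CPM in the controls and 7.65 and 9.61 CPM in the mutants, and Fgf2 4.96 and 5.41 against 7.43 and 9.27 CPM. The log2 fold changes of both in the mixed libraries were 0.73 and 0.70, which did not pass (adjusted p = 0.0923 and 0.114, edgeR).

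**Figure D2:**
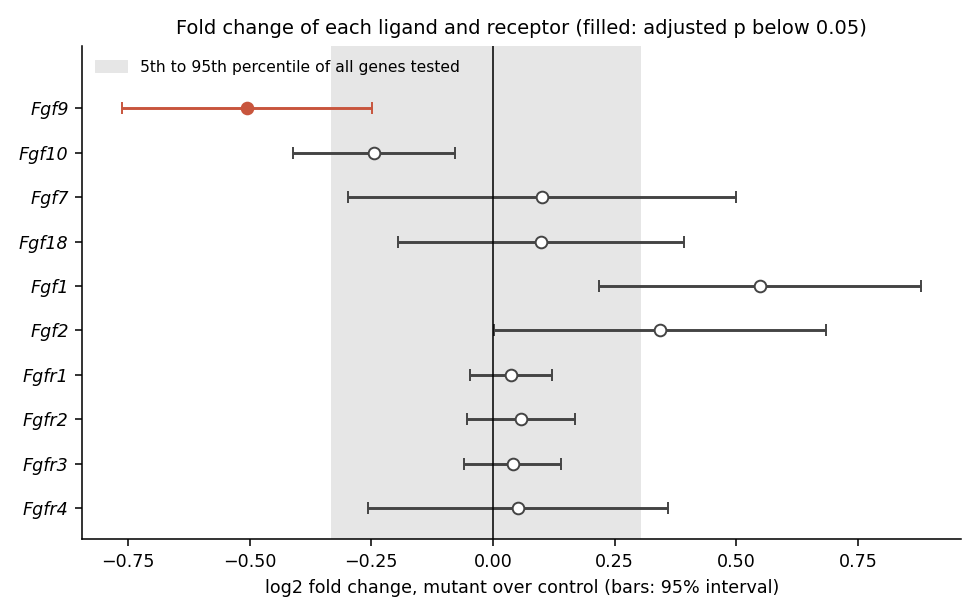
Log2 fold change of mutant over control (horizontal axis) for each of the 10 genes with its 95% interval from edgeR; the filled point passed the threshold, and the grey band spans the 5th to 95th percentile of all 15788 genes tested (-0.33 to 0.30). Fgf9, Fgf1 and Fgf2 lie outside the band, and the 4 receptors lie close to 0.

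None of the 4 receptors passed (edgeR, adjusted p from 0.696 to 0.909; 0 at an unadjusted p below 0.05, 0 in DESeq2 and 0 in limma-voom). The SE of the log2 fold change was at most 0.0519 for Fgfr1, Fgfr2 and Fgfr3, below the 0.0783 of Fgf10, the ligand with the smallest SE. When 1 library was left out, the log2 fold change ranged from 0.013 to 0.076 for Fgfr1, from 0.013 to 0.093 for Fgfr2, from 0.0023 to 0.073 for Fgfr3 and from -0.061 to 0.14 for Fgfr4. The upper ends were reached without mutant replicate 2 for Fgfr1 and Fgfr3, without mutant replicate 4 for Fgfr2 and without mutant replicate 1 for Fgfr4. In the mixed libraries the log2 fold changes of Fgfr1, Fgfr2, Fgfr3 and Fgfr4 were 0.085, 0.077, 0.17 and 0.15. With the Y-linked covariate they were 0.049, 0.098, 0.12 and 0.18, and none passed in either fit (edgeR). Of the 10 genes, 4 had an unadjusted p below 0.05 against 13.9% of all genes, and those 4 were Fgf9, Fgf10, Fgf1 and Fgf2. Fgfr1, a receptor of the mesenchyme, is a plus-strand gene of chromosome 8 (25513654 to 25575718). It measured 154, 153, 164 and 162 CPM in the controls (replicates 1 to 4) and 164, 152, 163 and 170 CPM in the mutants, in the same order. The mutant range enclosed that of the controls, and the 95% interval of the fold was 0.968 to 1.09.

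Fgfr2, whose epithelial and mesenchymal forms bind different ligands, lies on chromosome 7 on the minus strand. The deposited table sums both forms into 1 count. It also runs the gene from 130162451 to 133123350, while RefSeq ends it at 130266808, so exons far upstream are counted in that row and reads in exons shared with other genes of that stretch on the same strand were not counted. Fgfr2 measured 180.2, 186, 187 and 171 CPM in the controls (replicates 1 to 4) and 177, 207, 195 and 174 CPM in the mutants, in the same order. Mutant replicates 2 and 3 were the highest libraries and mutant replicates 1 and 4 lay inside the control range. The 95% interval of the fold was 0.964 to 1.12.

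Fgfr3, a receptor known from bone growth and alveolar development, is a plus-strand gene of chromosome 5 (33721674 to 33737068). Its levels were 99.3, 114, 111 and 108 CPM in the controls (replicates 1 to 4) and 106, 106, 119 and 115 CPM in the mutants, in the same order. Mutant replicates 3 and 4 were the highest of the 8, the others overlapped, and the 95% interval of the fold was 0.96 to 1.10. Fgfr4, which acts together with Fgfr3 in alveolar development, is a plus-strand gene of chromosome 13 (55152640 to 55168759). It measured 30.9, 41.8, 36.9 and 35.6 CPM in the controls (replicates 1 to 4) and 31.0, 45.0, 36.9 and 36.4 CPM in the mutants, in the same order. Replicates 1 were low and replicates 2 high in both groups, and with this spread the 95% interval of the fold was wider, at 0.837 to 1.28.

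Levels were compared between genes on a scale per exon length, as TPM, counts per exon length scaled to the same total in every library. In the controls the receptors stood above the ligands. Fgfr2 was highest at 60.7 ± 2.71 TPM, followed by Fgfr1 at 55.3 ± 2.05, Fgfr3 at 52.2 ± 3.33 and Fgfr4 at 35.5 ± 4.6 TPM (SD, n = 4). Fgf10 was the highest ligand at 24.4 ± 2.78 TPM, before Fgf18 at 12.5 ± 1.63 and Fgf9 at 5.13 ± 0.609 TPM. Fgf1 at 3.65 ± 0.413, Fgf2 at 3.27 ± 0.921 and Fgf7 at 2.06 ± 0.422 TPM came last. Neighbours in this order whose control libraries overlapped were Fgfr2 and Fgfr1, Fgfr1 and Fgfr3, Fgf1 and Fgf2, and Fgf2 and Fgf7. In the mutants Fgf1 at 5.36 ± 1.26 TPM and Fgf2 at 4.18 ± 0.552 TPM stood before Fgf9 at 3.65 ± 0.433 TPM, although the libraries of Fgf9 overlapped with those of both, at 3.04 to 4.04 TPM against 3.81 to 6.53 TPM for Fgf1 and 3.64 to 4.83 TPM for Fgf2. The exon length of the Fgfr2 row includes the upstream exons, which bears on its place.

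Within the ligand pool the shares of Fgf10 and Fgf1 did not overlap between the groups, while each receptor share overlapped. Of the summed TPM of the 6 ligands, Fgf10 made up 46.8%, 46.6%, 50.9% and 47.0% in the controls (replicates 1 to 4) and 43.4%, 40.8%, 41.2% and 42.6% in the mutants, in the same order. Fgf1 made up 6.75% to 7.52% in the controls and 9.05% to 12.2% in the mutants. Every mutant library had a lower Fgf10 share and a higher Fgf1 share than every control. Shares of 1 sum depend on each other, and no test was run on them. In CPM the groups of Fgf10 and of Fgf1 overlapped and neither gene passed. Shares were not computed for other genes, so there is no rate over all genes to set beside this. Fgf9 made up 8.35% to 12.6% and 5.57% to 8.80%, with overlap, and the summed ligand level was 51.0 ± 4.85 TPM in the controls and 49.7 ± 5.75 TPM in the mutants (SD, n = 4). Among the receptors, Fgfr2 held 29.8 ± 1.18% of the summed TPM in the controls and 30.0 ± 1.65% in the mutants, Fgfr1 27.2 ± 1.32% and 27.1 ± 2.11%, Fgfr3 25.6 ± 0.503% and 25.6 ± 1.46%, and Fgfr4 17.4 ± 1.47% and 17.3 ± 2.09%.

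**Figure D3:**
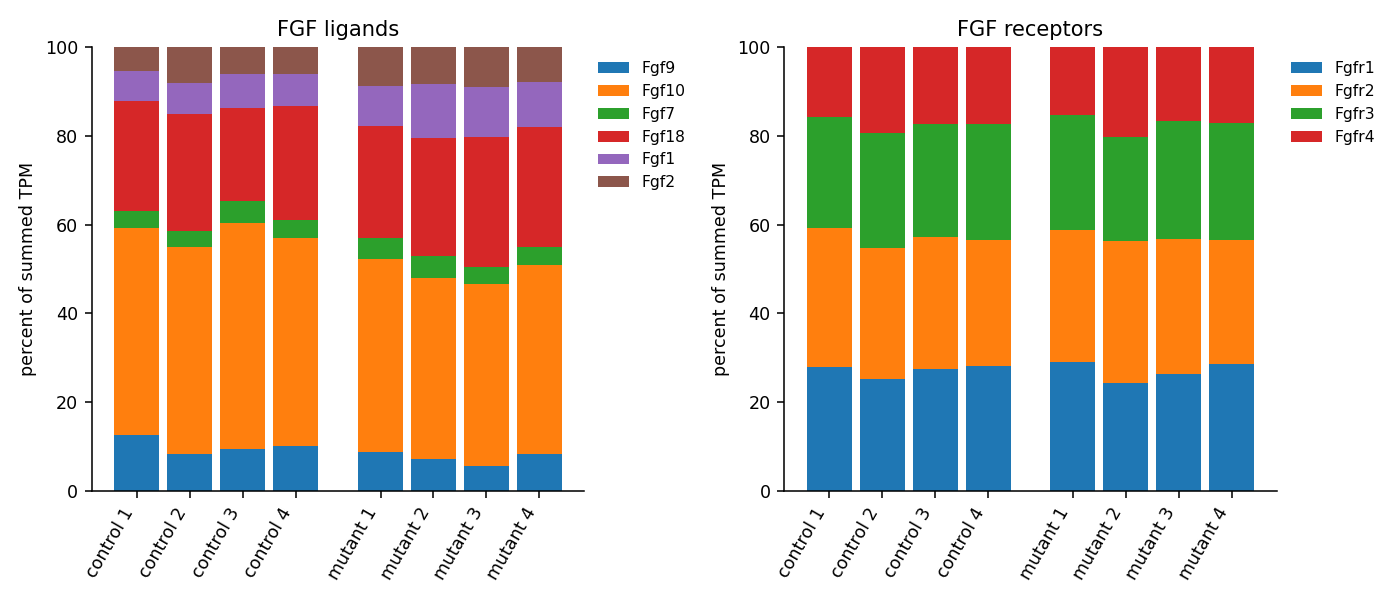
Percent of the summed TPM (vertical axes, 0 to 100) that each of the 6 ligands (left) or 4 receptors (right) makes up, 1 stacked bar per library. The Fgf10 segment is 46.6% to 50.9% in the controls and 40.8% to 43.4% in the mutants, and the receptor bars look alike in both groups.

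The remaining genes of the FGF pathway were read from lists chosen by role. Of 16 further genes of the FGF family, not all of which encode secreted ligands, 11 did not pass the filter on low counts. Their group means were at most 0.401 CPM. Of the 5 tested, 0 passed in edgeR, DESeq2 or limma-voom. At an unadjusted p below 0.05 in edgeR there were 2 of the 5, against 13.9% of all genes. Fgf11 and Fgf13, intracellular members of the family, were the highest, at 12.7 ± 0.859 and 5.20 ± 0.295 CPM in the controls and 14.9 ± 1.40 and 6.30 ± 0.835 CPM in the mutants (SD, n = 4). Of 8 tested decoy receptors, co-receptors and ligand-binding proteins, 0 passed in edgeR, DESeq2 or limma-voom and 0 had an unadjusted p below 0.05. The decoy receptor gene Fgfrl1 measured 76.9 ± 2.10 and 76.6 ± 0.929 CPM, and Flrt2, a membrane protein that binds FGF receptors, 40.9 ± 2.06 and 43.7 ± 2.67 CPM.

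Heparan sulfate, the sugar chain that FGFs need to bind their receptors, was followed through 24 tested proteoglycan and enzyme genes. Of these, 2 fell and 22 did not pass, against 0.931% of all genes called lower. Hs6st2, which encodes a heparan sulfate 6-O-sulfotransferase, measured 31.0 ± 1.14 CPM in the controls and 25.2 ± 1.37 CPM in the mutants, a log2 change of -0.30 ± 0.0586 (SE; adjusted p = 0.0147, edgeR). Sdc2, a syndecan that carries such chains, measured 132 ± 5.43 and 115 ± 6.35 CPM, a log2 change of -0.21 ± 0.0428 (SE; adjusted p = 0.0211, edgeR). The median log2 fold change of the list was -0.02. Both calls were lost in the mixed libraries, with the Y-linked covariate and without control replicate 3, and that of Sdc2 also without control replicate 1 and without mutant replicate 1.

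Downstream of the receptors, 0 of 24 tested genes of the signal relay that starts with the adaptor gene Frs2 passed in edgeR, DESeq2 or limma-voom. Without control replicate 4, 1 of them fell. At an unadjusted p below 0.05 in edgeR there were 2 of the 24, against 13.9% of all genes. The median log2 fold change of the list was -0.02. The kinase gene Akt1, the highest of the list, measured 496 ± 16.4 CPM in the controls and 490.2 ± 4.55 CPM in the mutants (SD, n = 4). Of 13 tested feedback inhibitors and ETS factors, 4 fell and 9 did not pass, against 0.931% of all genes called lower. Their median was -0.16, and their direction was known from earlier results on these libraries. Those that fell were Spry2, an inhibitor of the pathway (log2 fold change -0.33, SE 0.0578), the ETS factors Etv4 (-0.31, SE 0.0651) and Etv5 (-0.18, SE 0.0368), and the RAS inhibitor Spred1 (-0.19, SE 0.0443), with adjusted p from 0.00662 to 0.038 (edgeR). Of 18 alternative fits, the call was lost in 9 for Spred1, 7 for Etv5, 4 for Etv4 and 2 for Spry2. The count of lower genes was 5 in DESeq2 and 3 in limma-voom, and DESeq2 also called 1 gene higher. Without 1 library it was 1 (control replicate 1), 1 (control replicate 2), 2 (control replicate 3), 5 (control replicate 4), 2 (mutant replicate 1), 2 (mutant replicate 2, with 1 gene higher), 3 (mutant replicate 3) and 6 (mutant replicate 4). It was 5 without the low-count filter, with 1 gene higher, 3 without robust estimation, 6 with both replicates 4 left out, 1 with the Y-linked covariate and 0 in the mixed libraries, where the median was -0.12.

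**Figure D4:**
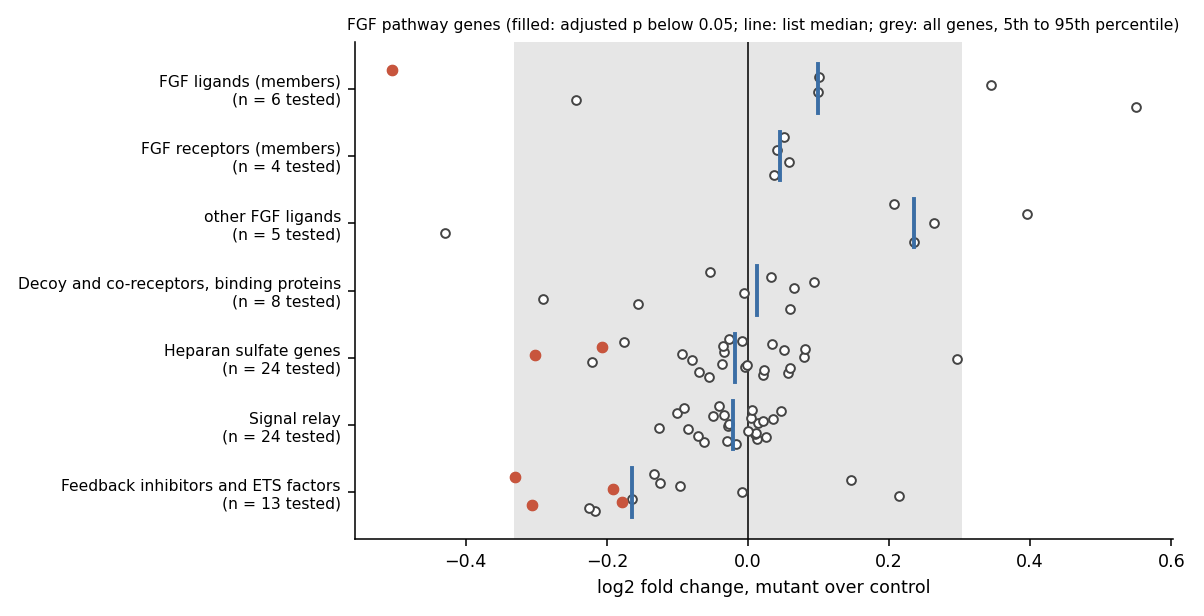
Log2 fold change of mutant over control (horizontal axis) for each tested gene of the ligands, receptors and 5 further lists of the FGF pathway, with the list median as a blue line and all genes' 5th to 95th percentile in grey. Filled points passed the threshold: 1 ligand, 2 heparan sulfate genes and 4 feedback inhibitors and ETS factors, all of them lower in the mutants.

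Genes whose levels ran most like those of Fgf9, Fgf10 and Fgfr2 over the 8 libraries were sought among 12310 named genes by Pearson's r of log2 CPM. These coefficients are a description: with so many genes and so few libraries high values arise readily, and the libraries share the group difference. The most alike to Fgf9 were Gtf2a1 (r = 0.974), Ube2e1 (0.964) and Sgip1 (0.962). For Fgf10 they were Amotl2 (0.984), Slc45a3 (0.982) and Zbtb33 (0.978), and for Fgfr2 Ube2z (0.962), Capn7 (0.956) and She (0.952). On deviations from the group means, Gtf2a1 (0.960), Amotl2 (0.982) and Ube2z (0.979) were again among the 3 nearest, beside Cnbp (0.965) and Tubb4a (0.964) for Fgf9, Cavin2 (0.982) and B4galt1 (0.977) for Fgf10, and Acot9 (0.981) and Wls (0.977) for Fgfr2.

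**Figure D5:**
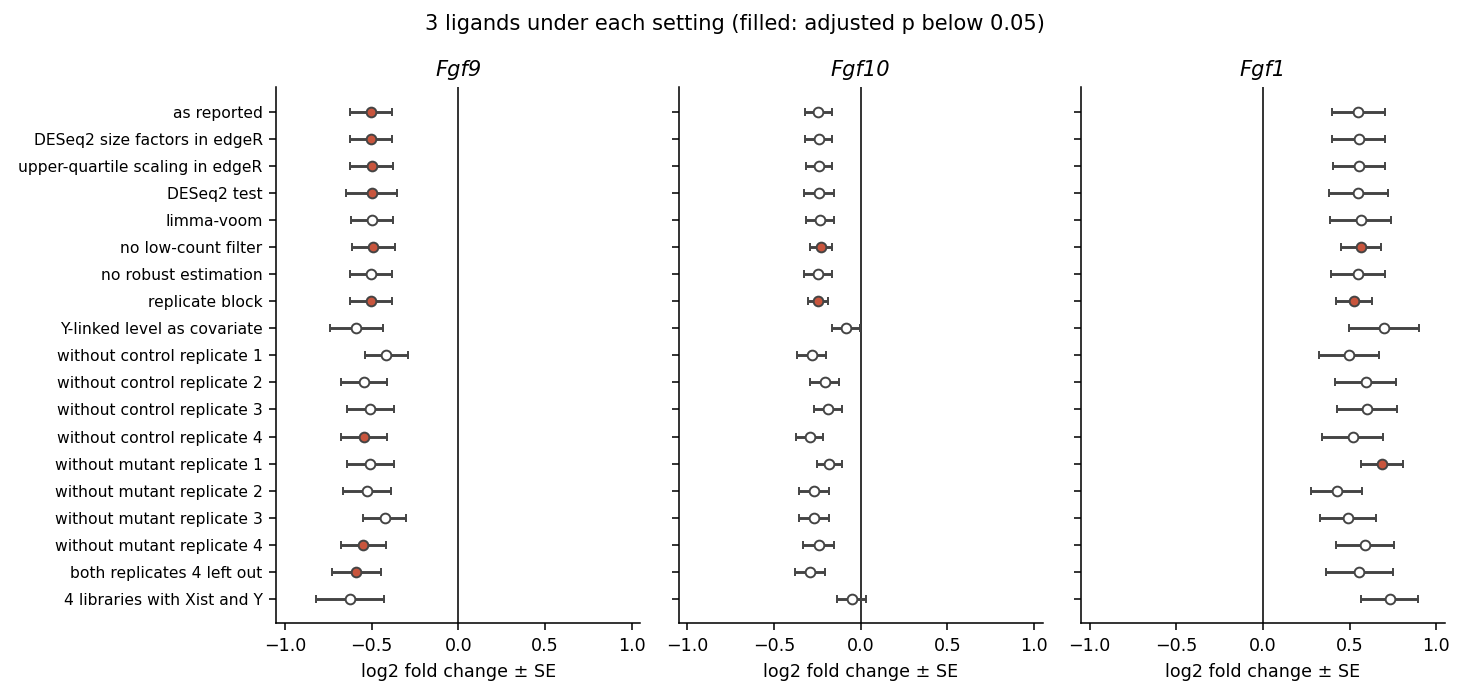
Log2 fold change ± SE (horizontal axes) of Fgf9, Fgf10 and Fgf1 as reported and under each of 18 other settings (rows); filled points have an adjusted p below 0.05. Fgf9 stayed between -0.62 and -0.41 and passed in 8 of the 18, Fgf10 reached -0.05 in the mixed libraries and passed in 2, and Fgf1 stayed between 0.42 and 0.73 and passed in 3.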

How the data were processed

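RNA of E13.5 lung was measured in 4 control and 4 mutant libraries, made with TRIzol LS, a Qiagen micro kit and a stranded Illumina mRNA kit, per the labels' protocols. The authors deposited raw counts of read pairs per gene, made per the file headers with featureCounts 1.6.4 over exons of GENCODE vM25 (paired reads, strand option 2), without multi-mapping or multi-overlapping reads. STAR, DESeq2 and the build GRCm38 (mm10) stand in the submitters' processing notes, with no version of STAR given. Symbols matched 55141 of 55401 genes. Totals were 17799899 to 48679134 counts, and 3 counts correspond to at most 0.169 CPM. Counting errors are the square root of the count and cover counting only.

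All 8 libraries entered 1 fit in edgeR 4.0.16 (R 4.3.3): expression filter, TMM, robust quasi-likelihood test of mutant against control, two-sided, Benjamini-Hochberg adjustment over 15788 genes. TPM was computed from counts and the deposited exon lengths. The alternatives were other scalings, DESeq2 1.42.0, limma-voom (limma 3.58.1), no filter, no robust estimation, the replicate number as a block, a Y-linked covariate (log2 of summed CPM plus 1) and left-out libraries. The 4-library comparison was added after the data were seen. The edgeR fit was also run on simulated counts with known changes. Those counts had no sex mix, so they say nothing on its part in the calls. No pair of libraries in a group was a duplicate: the variance between them was 2.90 to 8.95 times that of sampling. The members and lists were chosen with earlier results of these data known. Named genes were all members, Myrf, Upk3b, Wt1, and from each list up to 5 that passed or, where none passed, the 2 highest, plus the nearest genes by r whose mean log2 CPM reached 1. The result for 1 gene taken by this rule does not appear. Nkx2-1, Tbx4, Sox2, Wnt2 and Xist were named after their values were seen. Sequences are from RefSeq. Of the 10 members, 2 were not searched for sequence here.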

Additional observations from a re-analysis of the deposited data

Results flagged for a closer look

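Fgf7 in mutant replicate 2 was 2.5 CPM, far from the other mutants at 1.85, 1.86 and 1.90 CPM relative to the range of the group. It was counted from 122 read pairs there, in the deepest library. Of 20 groups of 4 values examined for the 10 genes, 1 stood out in this way, and chance gives about 1 in 20.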

How the results depend on the processing

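The count of 236 changed genes among all tested was 791 without the low-count filter, 142 without robust estimation, 95 with the Y-linked covariate, 567 with both replicates 4 left out, 87 in the mixed libraries, and 96 to 479 when a library was left out. With the Y-linked covariate 54.7% of calls were higher in the mutants and in the mixed libraries 63.2%, against 37.7% as reported. The 1 changed FGF gene became 0 with limma-voom, without robust estimation, with the Y-linked covariate and in the mixed libraries, 3 without the filter, and 0 to 1 when a library was left out. For Fgf9 the log2 fold change was -0.50 with limma-voom (adjusted p = 0.058) and -0.50 without robust estimation (0.0679, edgeR). It was -0.59 with the Y-linked covariate (0.118), -0.62 in the mixed libraries (0.283) and -0.55 to -0.41 when a library was left out. Its adjusted p was below the reported 0.0473 without control replicate 4 (0.0374) and without mutant replicate 4 (0.0312, edgeR). With both replicates 4 left out it was 0.0238 (edgeR). The cause of these differences was not tested. Without the filter Fgf10 and Fgf1 passed, at -0.23 and 0.57. The sign of Fgfr4 turned without control replicate 1 (-0.02) and without mutant replicate 2 (-0.061), and that of Fgf7 without mutant replicate 2 (-0.038); none of these values passed. Over the fits that left out 1 library, Fgf7 ranged from -0.038 to 0.245 and Fgfr4 from -0.061 to 0.14. The other 8 genes kept their sign in all 18 alternatives.

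Control and mutant replicate numbers are shared in the labels, but nothing says what a number marks. Deviations from the group means of same-numbered libraries correlated at 0.0811, 0.0648, 0.181 and 0.0125. Control replicates 1, 2 and 3 and mutant replicates 2 and 3 correlated best with the library of their own number. Control replicate 4 and mutant replicates 1 and 4 did not. Whether the numbers mark pairs cannot be settled from these values, and the main fit did not use them as pairs. With the replicate block 541 genes changed and 3 FGF genes did: Fgf9, Fgf10 at -0.25 (adjusted p = 0.0232) and Fgf1 at 0.52 (0.00969). Of the feedback inhibitors and ETS factors, 5 were lower and 1 higher with the block.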
